A study of Mus musculus with 8 samples.

Results

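The genes described here are 43 interferon-stimulated genes and their regulators, taken as a named list from the 24421 gene symbols of the count files. All 43 are present, and 42 passed the expression filter. Oas1g, with 0 to 11 reads per library, did not. RNA had been sequenced from naive CD4+ T cells of the spleens of C57BL/6 mice aged 6 to 8 weeks, described as male, with 4 libraries titled E1KO and 4 titled E1WT. The knockout animals carried a floxed Pcbp1 gene on both alleles and Cd4-Cre, a recombinase driven by Cd4 regulatory sequence that acts in T cells from thymic development onward, so cells of other lineages keep the gene. The control animals are called wild-type in the protocol and Pcbp1+/+ with Cd4-Cre in the genotype field, so it is not settled from the labels whether they carried Cre. PCBP1, also called hnRNP E1, binds C-rich RNA. The comparison asks which transcripts of naive CD4+ T cells differ without it.

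Type I interferons bind the receptor IFNAR1/IFNAR2, whose kinases TYK2 and JAK1 phosphorylate STAT proteins such as STAT2. With IRF9 these form a complex that binds the interferon-stimulated response element, and the genes it switches on code for sensors of viral RNA, antiviral effectors, and feedback regulators. Resting lymphocytes express many of these genes at a low basal level. PCBP1 and its paralog PCBP2 are known as negative regulators of MAVS, the adaptor through which the RNA sensors RIG-I and MDA5 induce interferon.

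The genotype field of each of the 8 samples names the opposite genotype to its title, and the libraries are named by title throughout. Pcbp1 was low in the E1KO-titled libraries, at 38.8, 39.8, 41.2 and 42.4 CPM, the gene's reads relative to all gene reads of the library on the field's usual scale, and high in the E1WT-titled libraries, at 217.5, 240.3, 221.6 and 196.0 CPM, which goes with the titles. Xist, transcribed from the inactive X chromosome, stood at 378 to 433 CPM in E1KO-titled and 0.544 to 2.82 CPM in E1WT-titled libraries. Ddx3y, Kdm5d, Uty and Eif2s3y on the Y chromosome had fitted folds of 0.472 to 0.507, E1KO-titled over E1WT-titled. Kdm5d, for example, was at 40.0 to 44.5 CPM in E1KO-titled and 82.4 to 88.5 CPM in E1WT-titled libraries. Each E1KO-titled library thus held both Xist and Y-linked reads, although the animals are described as male. No label states that each library is a separate animal, and whether a library held cells of both sexes was not tested. The sex signal and the titles therefore cannot be told apart. The libraries held 28264655 to 36738202 gene counts. Summed markers of naive CD4+ T cells, from 10 genes such as Cd4, Cd3e and Ccr7, were at 6257 to 6531 CPM in E1KO-titled and 6802 to 7059 CPM in E1WT-titled libraries, so the labelled cell type was present in each. In bulk RNA, fewer cells of a type and less RNA per cell cannot be told apart.

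The promoters show what the members share apart from their name. The RefSeq table on GRCm38.p6 gave a window of 250 bases before to 50 after a start for 33 of the 43 members, all but Dhx58, Zbp1, Oas1b, Oas2, Mx1, Mx2, Rtp4, Usp18, Parp9 and Parp14. The response element was searched as GAAA, any 2 bases and GAAA again, on either strand (TTTC, 2 bases, TTTC), with overlapping matches allowed. It was present in 57.6% of these members (19 of 33) and in 3.99% of all 27025 genes with a window. The gamma-activated element, TTCNNNGAA, was present in 36.4% of the members (12 of 33) and 9.55% of all genes. A match is a stretch of letters, not a shown site of binding. The stretches below are those of the 5 called members with a match wholly before the start, of Oas1g and Igtp as close relatives of Oas1a and Irgm2, and of Isg15 as a commonly read marker gene. They are written 5′ to 3′ along the gene's strand, with the letters that match the response element in capitals.
Stat2, chr10:128270259-128270303, plus strand: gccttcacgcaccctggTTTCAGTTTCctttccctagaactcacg
Ifit1, chr19:34640787-34640831, plus strand: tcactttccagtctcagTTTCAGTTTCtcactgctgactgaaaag
Oas1a, chr5:120907526-120907570, minus strand: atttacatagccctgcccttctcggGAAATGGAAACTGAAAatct
Oas1g, chr5:120887614-120887658, minus strand: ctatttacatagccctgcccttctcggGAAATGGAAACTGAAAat
Irgm1, chr11:48871421-48871465, minus strand: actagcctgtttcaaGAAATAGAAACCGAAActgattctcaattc
Irgm2, chr11:58214896-58214940, plus strand: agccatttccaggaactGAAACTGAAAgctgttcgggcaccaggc
Igtp, chr11:58199505-58199549, plus strand: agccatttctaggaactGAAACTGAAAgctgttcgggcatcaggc
Isg15, chr4:156200857-156200901, minus strand: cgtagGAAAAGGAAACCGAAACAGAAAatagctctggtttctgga

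The stretches of Oas1a and Oas1g, aligned on the match, differ at 0 of 43 shared bases, and those of Irgm2 and Igtp at 2 of 45. Among members with a window it was present in 5 of 7 that fell (Stat2, Ddx58, Ifit1, Irgm1 and Irgm2, but not Xaf1 or Isg20), in 1 of 2 that rose (Oas1a, not Ifi44) and in 12 of 23 that were not called.

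Most interferon response genes were not called, and those that were mainly fell. Of the 42 tested members, 9 fell and 2 rose in E1KO-titled libraries at an adjusted p below 0.05 in edgeR's quasi-likelihood test, which is 26.2% of them, against 23.3% of all 13333 genes tested. By direction, 21.4% of members fell against 11.1% of all genes, and 4.76% rose against 12.2%. Xaf1, Ifit1, Isg20, Oas2, Dhx58, Ddx58, Stat2, Irgm1 and Irgm2 fell, and Ifi44 and Oas1a rose. The median log2 fold over members was -0.08, against 0.01 over all genes, and 33 of 42 members had a negative fold. With library totals alone for scaling, 3 members were higher and 5 lower (19% called, against 24.8% of all genes), and the medians were -0.02 and 0.07. The same change turned the calls over all genes from 52.2% to 68.3% higher. The CPM ranges of the titles did not overlap for 10 members (23.8%), against 27.1% of all genes. In 3 of these the E1KO range lay above, as for 18.7% of all genes, and in 7 below, as for 8.44%. In a fit with the replicate number as a block, 5 members were lower and 2 higher (16.7% called, against 16.2% of all genes).

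**Figure D1:**
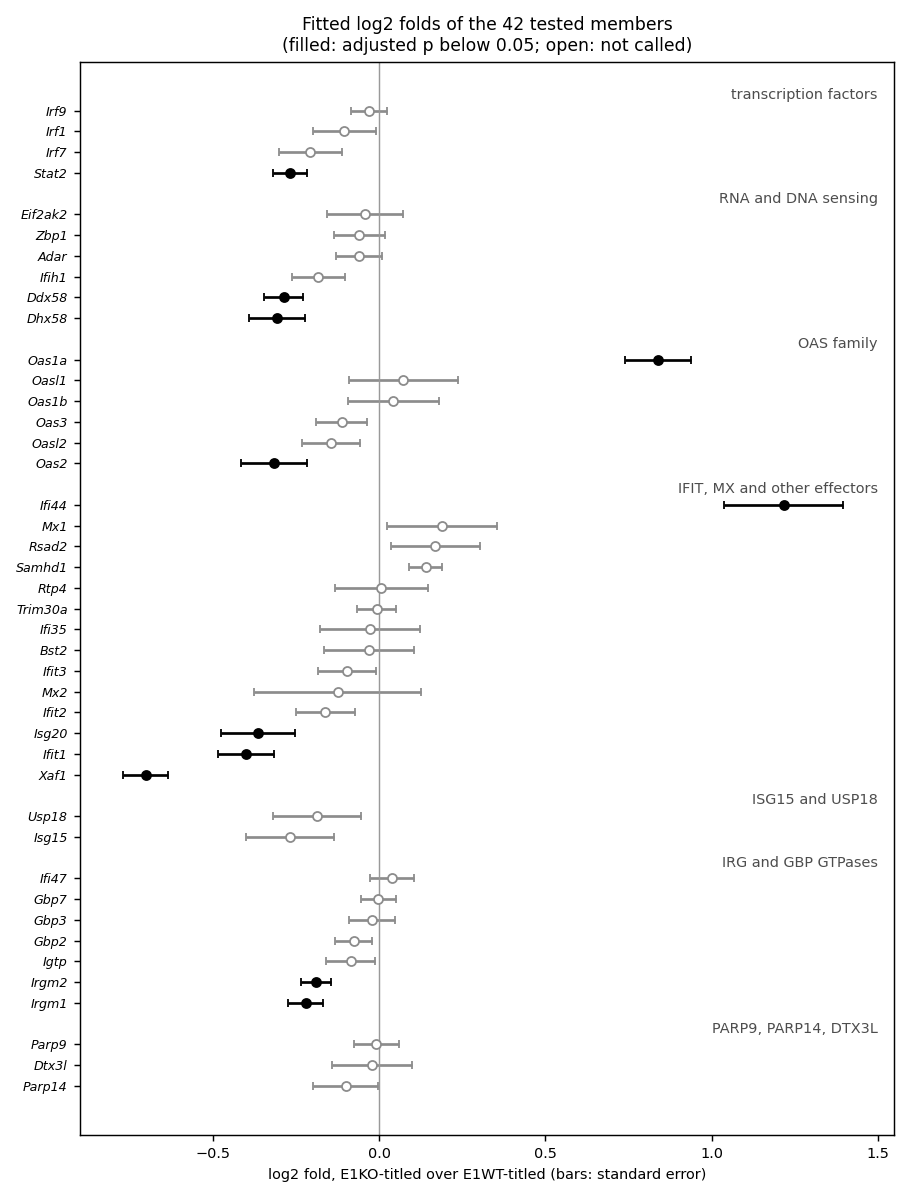
Fitted log2 folds (x axis, E1KO-titled over E1WT-titled, bars are standard errors) of the 42 tested members, grouped by role, with filled points for an adjusted p below 0.05. Ifi44 and Oas1a stand to the right, Xaf1 to the left, and the 31 uncalled members lie between -0.27 and 0.19.

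**Figure D2:**
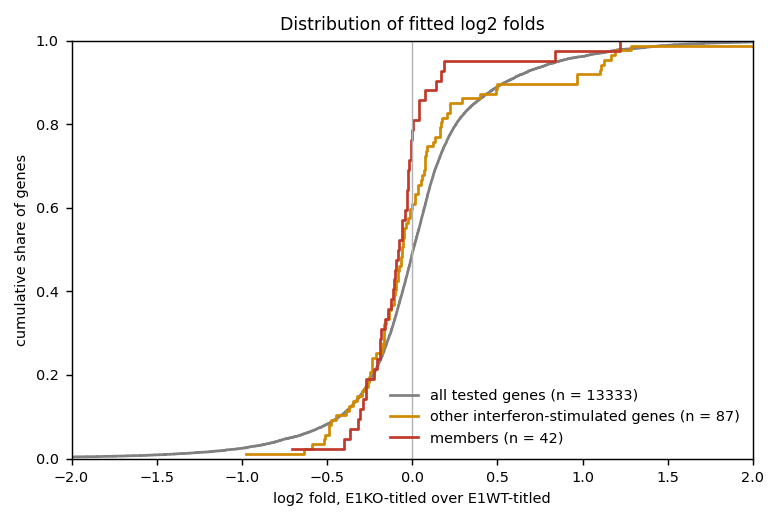
Cumulative share (y axis) of genes by fitted log2 fold (x axis, shown from -2 to 2) for the 42 members, 87 other interferon-stimulated genes and all 13333 tested genes. Of the member folds 33 of 42 are negative, and the member median is -0.08 against 0.01 for all genes.

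Of the transcription factors, Stat2, which joins IRF9 in the interferon-induced complex, fell slightly. It stood at 91.5, 90.3, 90.7 and 82.1 CPM in E1KO-titled libraries and at 101.3, 102.2, 102.0 and 103.7 CPM in E1WT-titled ones. Every E1KO-titled library was below every E1WT-titled one, and E1KO 4 was lower than the other 3 of its title. The log2 fold was -0.27 ± 0.05 (SE, adjusted p = 0.0033 in edgeR). Irf9 was not called, and its level ran from 128 to 148 CPM across all 8 libraries. Irf7, the factor that amplifies interferon production, ranged from 44.2 to 55.9 and from 47.3 to 65.7 CPM, with a log2 fold of -0.21 ± 0.10 (edgeR adjusted p = 0.14). It was called without the E1WT 4 library (edgeR adjusted p = 0.045) and with E1KO 1 and E1WT 4 both left out (0.047). Irf1, which also responds to interferon gamma, was not called, at 168 to 227 and 181 to 239 CPM.

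Of the 6 sensors, 2 were called, Ddx58 and Dhx58, both lower (33.3%, against 23.3% of all genes called). Ddx58, which codes for RIG-I, a sensor of viral RNA ends, stood at 143, 135, 132 and 132 CPM in E1KO-titled and 154, 153, 157 and 169.6 CPM in E1WT-titled libraries. The titles did not overlap, and the log2 fold was -0.29 ± 0.06 (edgeR adjusted p = 0.0044). Dhx58, which codes for the regulatory receptor LGP2, stood at 21.7, 20.5, 22.9 and 17.9 against 24.5, 25.04, 23.9 and 24.8 CPM, again with no overlap. Its log2 fold of -0.31 ± 0.08 (edgeR adjusted p = 0.022) was no longer called after leaving out E1KO 2, E1KO 4 or E1WT 1 (adjusted p = 0.058, 0.062 and 0.055), with the replicate block (0.062) or with library totals alone (0.061). Its exons overlap those of the antisense gene Dhx58os over 141 bp, and strand use in the counting is not given.

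Ifih1, which codes for MDA5, the third receptor of the family, was at 37.3 to 44.0 and 42.5 to 50.3 CPM (log2 fold -0.18 ± 0.08, edgeR adjusted p = 0.12). Zbp1, a sensor of Z-form nucleic acid, Eif2ak2, which codes for the kinase PKR, and Adar, an RNA-editing enzyme that keeps self RNA from the sensors, were not called. Adar was at 257 to 297 and 255 to 294 CPM. Mavs, which codes for the adaptor of RIG-I and MDA5 and was named after its values were seen, stood at 35.3, 40.9, 42.7 and 34.8 against 32.4, 34.4, 31.6 and 34.3 CPM. Its CPM ranges, which lack the scaling used in the fit, lay close together without overlap. It was not called (log2 fold 0.15 ± 0.08, edgeR adjusted p = 0.195).

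The 2′-5′ oligoadenylate synthetases make the second messenger that activates RNase L. Within the single cluster that holds Oas1a, Oas1b, Oas2 and Oas3, the genes differed from one another. Oas1a, at chr5:120896256-120907521 on the minus strand, stood at 17.7, 20.8, 18.6 and 19.1 CPM in E1KO-titled and 11.1, 11.3, 9.53 and 8.86 CPM in E1WT-titled libraries. The lowest E1KO-titled library was above the highest E1WT-titled one, and the log2 fold was 0.84 ± 0.10 (edgeR adjusted p = 0.00016). Oas1b, in the same cluster at chr5:120812635-120824163 on the plus strand, had overlapping ranges of 16.3 to 20.9 and 13.2 to 21.2 CPM (log2 fold 0.04 ± 0.14, edgeR adjusted p = 0.86). Oas2, at chr5:120730333-120749853, stood at 13.9, 13.8, 12.6 and 15.3 against 16.1, 17.8, 17.9 and 14.5 CPM. Those ranges overlap, and the log2 fold was -0.32 ± 0.10 (edgeR adjusted p = 0.039). Oas2 was not called when replicate 1, 2 or 3 of either title was left out (adjusted p = 0.056 to 0.108), with the block (0.106) or with library totals alone (0.085). Oas3, Oasl1 and Oasl2 were not called, and the ranges of each overlapped.

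Oas1g, whose promoter stretch matches that of Oas1a, was at 0 to 0.301 CPM. The 2 transcripts are alike: 47.6% of the 75-base windows of the Oas1a transcript also occur in Oas1g. The closing rows of reads given to no gene include a row named for alignments that are not unique. Reads that align to both genes may thus have been given to neither, so the level of each is uncertain. Ratios of 2 members within a library do not depend on scaling, and 7 such ratios of clustered genes, chosen after the values were seen, are given as a description with no test. The log2 ratio of Oas1a to Oas1b was 0.03 ± 0.14 in E1KO-titled and -0.75 ± 0.26 in E1WT-titled libraries (SD, n = 4 each). The ratio of Oas1a to Oas2 was 0.46 ± 0.14 against -0.70 ± 0.16, and that of Oas1a to Oas3 -1.05 ± 0.09 against -2.01 ± 0.23. The 3 ratios share Oas1a as numerator, and in each the E1KO-titled libraries all lay above the E1WT-titled ones.

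**Figure D3:**
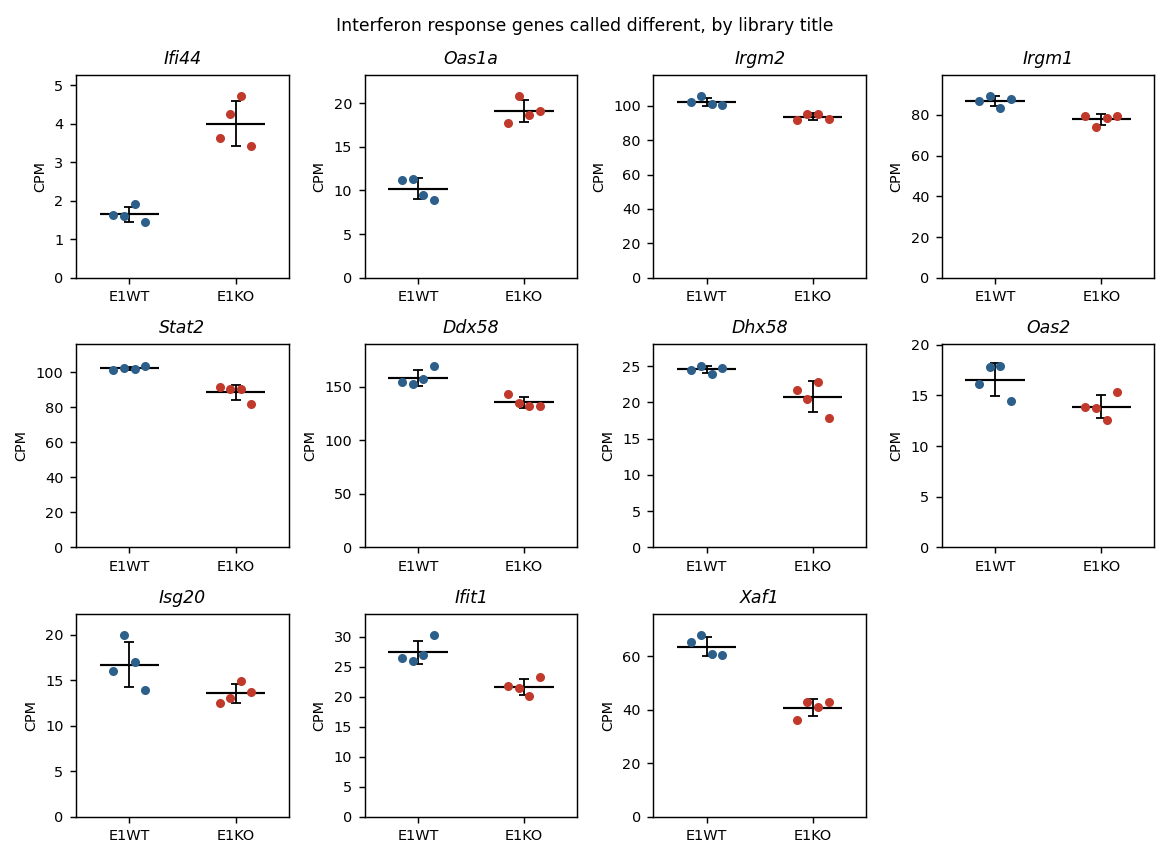
CPM (y axes, from 0) of the 11 called members in each library, with E1WT-titled points on the left and E1KO-titled points on the right, and bars for the mean and SD over 4 libraries. Ifi44 and Oas1a are higher in all E1KO-titled libraries, Xaf1 is lower in all, and Oas2 and Isg20 overlap between the titles.

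Among the other antiviral effectors, Xaf1 fell the most of any member. XAF1 antagonises inhibitors of apoptosis and is induced by interferon, and its gene lies at chr11:72301629-72313733 on the plus strand. It stood at 36.4, 42.9, 41.2 and 42.9 CPM in E1KO-titled and 65.4, 67.9, 60.7 and 60.6 CPM in E1WT-titled libraries, with a wide gap between the titles. The log2 fold was -0.70 ± 0.07 (edgeR adjusted p = 4.12e-05), which is a fold of 0.614 with the scaling of the fit. Ifi44, a gene of poorly known function and low level here, went the other way, at 3.62, 4.24, 4.71 and 3.43 against 1.63, 1.61, 1.91 and 1.45 CPM, from 46 to 145 reads per library. It rose by 1.22 ± 0.18 on the log2 scale (edgeR adjusted p = 0.00061), the largest fold of any member.

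Ifit1, whose product binds viral RNA caps, fell. It stood at 21.9, 21.5, 20.1 and 23.3 CPM in E1KO-titled and 26.5, 25.9, 27.0 and 30.3 CPM in E1WT-titled libraries, with no overlap (log2 fold -0.40 ± 0.08, edgeR adjusted p = 0.0056). Its neighbours on chromosome 19, Ifit2 and Ifit3, were not called. Ifit2 was at 76.5 to 99.7 and 88.4 to 105.2 CPM, and Ifit3, which shares 41.1% of its 75-base windows with Ifit3b, at 10.3 to 11.9 and 11.1 to 11.9 CPM. The log2 ratio of Ifit1 to Ifit2 was -2.06 ± 0.13 against -1.83 ± 0.06, and that of Ifit1 to Ifit3 0.95 ± 0.11 against 1.25 ± 0.11 (SD, n = 4 each). Both ratios share Ifit1 as numerator, and in both the E1KO-titled libraries all lay below the E1WT-titled ones.

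Isg20, an exonuclease, stood at 12.5, 13.0, 14.9 and 13.7 against 16.03, 19.9, 16.97 and 13.9 CPM. The E1WT 4 library lay within the E1KO range, and the log2 fold was -0.37 ± 0.11 (edgeR adjusted p = 0.033). The call was absent when replicate 1, 2 or 4 of E1KO, or 1, 2 or 3 of E1WT, was left out (adjusted p = 0.061 to 0.086), with the block (0.072) or with library totals alone (0.076). Samhd1, which depletes the nucleotides that retroviruses need, stood at 753, 755, 726 and 727 against 635, 638, 639 and 663 CPM. The titles did not overlap, yet the log2 fold of 0.14 ± 0.05 missed the threshold (edgeR adjusted p = 0.063). It passed without the E1WT 4 library (adjusted p = 0.044), with library totals alone (0.0087) and with the exon-length trend described further on removed (0.0018).

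The remaining effectors were not called. Mx1 and Mx2, dynamin-like GTPases that block viral replication, were low, at 3.46 to 5.46 and 1.48 to 2.64 CPM over the 8 libraries. Rsad2, which codes for viperin, was at 5.92 to 6.86 against 4.62 to 6.45 CPM. Bst2 (tetherin), Rtp4, Ifi35 and Trim30a overlapped between the titles. The ubiquitin-like modifier Isg15 and Usp18, the protease that removes it and that restrains receptor signalling, are commonly read as markers of an interferon response. Isg15 was at 8.83, 9.39, 12.1 and 9.59 against 11.5, 14.1, 10.6 and 9.71 CPM, and Usp18 at 11.8 to 18.3 against 13.5 to 18.3 CPM. Both overlapped between titles, with log2 folds of -0.27 ± 0.13 and -0.19 ± 0.13 (edgeR adjusted p = 0.17 and 0.34).

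Some interferon-inducible GTPases attack vacuoles that hold pathogens. Of the 7 GTPase members tested, 2 were called (28.6%, against 23.3% of all genes), both lower. Irgm1 stood at 79.4, 73.9, 78.5 and 79.5 CPM in E1KO-titled and 87.0, 89.2, 83.3 and 88.0 CPM in E1WT-titled libraries. Irgm2 stood at 91.9, 95.1, 95.4 and 92.2 against 102.0, 105.5, 100.9 and 100.7 CPM. Neither gene overlapped between the titles, and both falls were small (log2 folds -0.22 ± 0.05 and -0.19 ± 0.05, edgeR adjusted p = 0.010 and 0.011). The call of Irgm2 ended with the replicate block (adjusted p = 0.058) and with library totals alone (0.066). The exons of Irgm2 and Igtp overlap over 162 bp on the same strand. Igtp (133 to 168 against 134 to 157 CPM) and Ifi47 (172 to 198 against 163 to 195 CPM) were not called. The log2 ratio of Irgm2 to Igtp was -0.64 ± 0.12 against -0.54 ± 0.09, and that of Irgm1 to Ifi47 -1.26 ± 0.10 against -1.003 ± 0.10 (SD, n = 4 each), and the libraries of the titles overlapped in both. The guanylate-binding proteins Gbp2, Gbp3 and Gbp7, clustered on chromosome 3, were not called.

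Parp9 and Dtx3l, whose products act as a complex, and Parp14 were not called. The exons of Parp9 and Dtx3l overlap over 458 bp on opposite strands. Dtx3l ran from 175 to 244 CPM among E1KO-titled and from 172 to 238 CPM among E1WT-titled libraries.

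**Figure D4:**
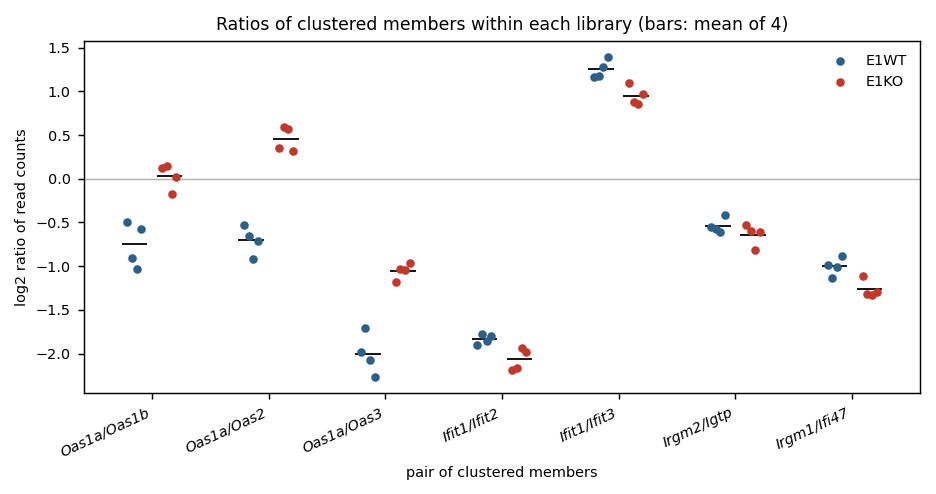
Log2 ratios of read counts (y axis) for 7 pairs of clustered members, with 4 E1WT-titled and 4 E1KO-titled libraries per pair and bars for the means. The ratios of Oas1a to Oas1b, Oas2 and Oas3 are higher in every E1KO-titled library, those of Ifit1 are lower, and the Irgm2 to Igtp ratios overlap.

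Per kilobase of exon, the members covered a wide range of levels. Samhd1, Igtp and Ifi47 led with 80.9, 72.4 and 75.6 CPM per kb in E1KO-titled and 70.3, 73.5 and 70.5 in E1WT-titled libraries. Irf1 followed at 50.2 and 51.6, and Bst2 at 45.9 and 44.9 CPM per kb. Oas1g was lowest. Above it stood Rsad2, Mx1, Mx2 and Ifi44, at 0.527 to 1.46 CPM per kb in E1KO-titled and 0.269 to 1.24 in E1WT-titled libraries. Classical inducible genes such as Isg15 (13.2 and 15.2 CPM per kb), Ifit1 (8.16 and 10.3) and Usp18 (5.26 and 5.73) lay in the middle.

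Within a title, the members varied with the length of their exons. E1KO 1 and E1WT 4 were low for short members and high for long ones, and E1KO 3 and E1WT 2 the reverse, with weaker or no such pattern in the medians of the other 4 libraries. Over the 21 members shorter than the median exon length of 3856 bp, the median deviation of log2(CPM + 0.5) from the title mean was -0.13 in E1KO 1 and -0.19 in E1WT 4, but 0.14 in both E1KO 3 and E1WT 2. Over the 21 longer members it was 0.02, 0.06, -0.02 and -0.05. As a description over 42 genes that share their libraries, the Spearman correlation of deviation with exon length was 0.655, 0.32, -0.476 and -0.489 in E1KO 1 to 4 and -0.167, -0.636, 0.136 and 0.61 in E1WT 1 to 4. The same correlations over all tested genes were 0.22, -0.01, -0.32 and -0.23 in E1KO 1 to 4 and 0.08, -0.26, 0.09 and 0.32 in E1WT 1 to 4. With a smooth length trend taken out of each library, 15 members were called, 12 lower and 3 higher (35.7% of the 42), and the share called over all genes also went up, to 27.5%. The 4 gained were Irf7, Isg15, Igtp and Samhd1, at log2 folds of -0.24, -0.31, -0.16 and 0.20 (edgeR adjusted p = 0.035, 0.027, 0.030 and 0.0018).

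**Figure D5:**
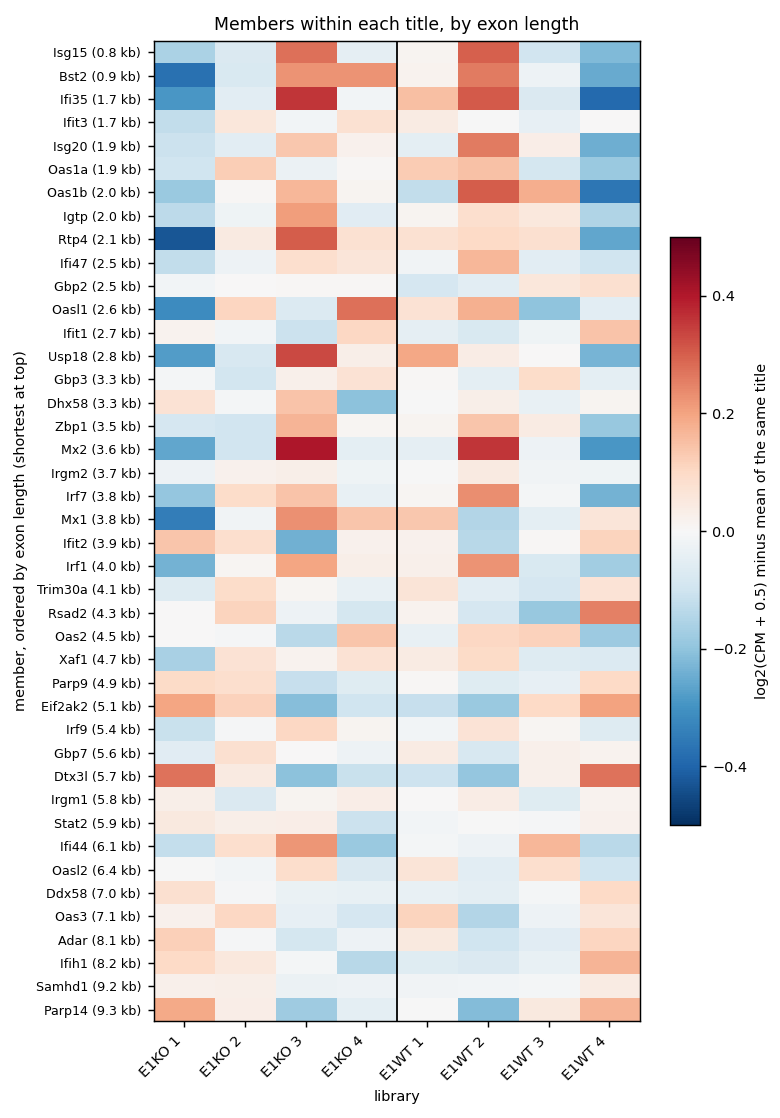
Deviation of log2(CPM + 0.5) from the mean of the same title (colour, blue low and red high) for the 42 tested members (rows, shortest exon length at the top) in the 8 libraries (columns). Short members are blue in E1KO 1 and E1WT 4 and red in E1KO 3 and E1WT 2, and long members tend to the reverse.

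Upstream of the members, few reads were counted for ligand genes. Of 18 type I interferon genes, 16 had 0 reads in all 8 libraries, which allows up to 3 reads, or 0.0817 to 0.106 CPM, per library as counting error alone. Reads that align to several alike genes may have been given to none of them, and that limit does not cover such a loss. Ifnk and Ifnz had 0 to 7 and 0 to 19 reads per library. Ifng, the type II interferon, was at 1.14, 1.84, 1.30 and 1.40 against 2.37, 4.90, 2.33 and 1.75 CPM and fell by 1.06 on the log2 scale (SE 0.32, edgeR adjusted p = 0.032). That call was absent after leaving out replicate 1, 3 or 4 of E1KO, or 1 or 2 of E1WT (adjusted p = 0.051 to 0.093), and without E1WT 2 the log2 fold was -0.66.

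In the receptor and kinase list, 4 of 16 tested genes fell (25%, against 11.1% of all genes) and 2 rose (12.5%, against 12.2%). Tyk2, the kinase bound to IFNAR1, stood at 108.3, 115.6, 109.6 and 106.7 against 157.5, 153.2, 151.1 and 149.0 CPM (log2 fold -0.54 ± 0.05, edgeR adjusted p = 2.31e-05). The gap between titles was large next to the spread within each. Socs3, a feedback inhibitor of cytokine receptors, and Ptpn11, a phosphatase, fell by 0.34 ± 0.07 and 0.24 ± 0.07. Ptpn11 was not called when replicate 2, 3 or 4 of E1KO, or 1, 3 or 4 of E1WT, was left out (edgeR adjusted p = 0.065 to 0.079). The receptor chains that rose were Ifnar2, at 87.3 to 88.6 against 71.2 to 75.0 CPM (log2 fold 0.21 ± 0.05), and Ifngr1, at 115 to 146 against 82.6 to 101 CPM (0.43 ± 0.08). Ifnar1 and Jak1, named after their values were seen, were not called (log2 folds -0.17 ± 0.07 and -0.08 ± 0.06).

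Of 20 genes listed as linked to interferon induction, not all of which promote it, 4 rose and 3 fell. That is 35% called against 23.3% of all genes. Those that rose were Irf5 (22.4 ± 0.905 against 12.5 ± 1.86 CPM, SD, n = 4 each), Irf8 (66.0 ± 5.29 against 44.7 ± 1.25), the endosomal RNA receptor Tlr7 (14.1 ± 1.45 against 9.26 ± 1.48) and Rnf135, a ubiquitin ligase of RIG-I (log2 fold 0.41 ± 0.11). The call of Rnf135 ended without the E1WT 3 library (edgeR adjusted p = 0.059). Tlr7 lies on the X chromosome, where Xist also differed between the titles. Those that fell were Ikbke, a kinase of the IRF3 pathway (204 ± 22.1 against 284 ± 11.6 CPM), Nlrc5, the transactivator of MHC class I genes (350.2 ± 18.4 against 417 ± 17.9), and Trex1, a DNA exonuclease (15.4 ± 0.869 against 19.6 ± 1.84).

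IRF5, IRF8 and TLR7 are abundant in myeloid and dendritic cells, and markers of those cells were higher in the same libraries. The shares called below stand against 23.3% of all genes. Of 14 monocyte and macrophage markers 12 were tested, and 6 rose and 1 fell (58.3% called). The sum of the 14 was 327 to 350.1 CPM in E1KO-titled and 205 to 239 CPM in E1WT-titled libraries. Of 12 dendritic markers 9 rose (75%), with sums of 701 to 810.1 and 515 to 642 CPM. Of 12 plasmacytoid dendritic markers, which include the member Bst2, 4 rose and 1 fell (41.7%). Their sums were 262 to 276 and 246 to 254 CPM. No marker of these 3 lists was at 0 in all libraries. The summed erythroid markers stood at 159 to 186 against 55.4 to 69.8 CPM, with Hba-a1, Hba-a2, Hbb-bs and Hbb-bt listed at 0. Of 7 tested erythroid markers 5 rose (71.4%), and Car1 alone averaged 105 against 34.5 CPM. Of 9 NK cell markers 7 were tested and 3 rose (42.9%), with sums of 134.5 to 145 against 117 to 125 CPM and Klra4 and Klra8 at 0. Plasma cell markers summed to 890.3 to 1103 against 597 to 813 CPM, with 1 of 7 called (14.3%). That was Jchain, which averaged 820.6 against 544.1 CPM. Neutrophil markers summed to 46.3 to 49.4 against 43.3 to 46.3 CPM, although 3 of 9 were lower and 1 higher (44.4%, median log2 fold -0.17). The naive CD4+ T cell sum given above was lower (ratio 0.92), with 4 of 10 markers lower and 1 higher (50%). Each of these 8 sums gave an exact permutation p of 0.0286, two-sided (0.0357 adjusted over 10 lists), the smallest that 4 against 4 libraries allow. The sums lack the scaling factors of the fit, which were 1.01 to 1.03 in E1KO-titled and 0.965 to 0.990 in E1WT-titled libraries. The plasmacytoid dendritic and neutrophil sums had ratios of only 1.063 and 1.07. Whether their titles stay apart with that scaling was not tested, so no difference is read from these p-values. B cell and CD8 marker sums overlapped between the titles (exact permutation p = 0.343 and 0.257). The part of these cell types in the rises and falls of the members and of Irf5, Irf8 and Tlr7 was not tested.

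Among interferon-stimulated genes outside the member list, 87 were tested, 11 rose and 16 fell, which is 31.0% against 23.3% of all genes. The median log2 fold was -0.06. Slfn8 and Slfn9, neighbours of the Schlafen family whose reads can be shared, went apart, at 81.4 ± 4.38 against 11.2 ± 3.49 and 36.8 ± 2.78 against 69.2 ± 9.25 CPM (SD, n = 4 each). Ms4a4c stood at 63.3 ± 3.07 against 27.0 ± 2.62 CPM, and the membrane proteins Ifitm2 and Ifitm3, which block viral entry, at 15.2 ± 3.90 against 6.63 ± 0.776 and 7.84 ± 2.18 against 3.30 ± 0.972 CPM. Iigp1, a GTPase of the same family as Irgm1, and Lap3 rose by 0.40 ± 0.06 and 0.50 ± 0.08 on the log2 scale. On the lower side were Tap1, the peptide transporter of MHC class I loading (log2 fold -0.59 ± 0.06), Gbp8 (-0.45 ± 0.06), Helz2 (-0.49 ± 0.07), Herc6, the ligase that attaches ISG15 in mouse (-0.32 ± 0.05), and Ddx60 (-0.52 ± 0.09). Several of the marker sums given above were also higher in E1KO-titled libraries, while the naive CD4+ T cell sum was lower and the B cell and CD8 sums overlapped. The part of these cell types in the rises of Ms4a4c, Ifitm2 and Ifitm3 was not tested.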

How the data were processed

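The authors deposited unnormalized read counts by gene symbol for each library. Per the submitters' processing notes, TopHat2 2.1.0, HTSeq 0.9.1 and mm10 were used; annotation and strand setting: not given in the sources used here. Libraries were made from 50 ng of RNA and read as 75 bp paired ends, per the labels' protocols. The 5 closing rows, with reads given to no gene (28.2% to 37.0% of counts), were left out. CPM values use the remaining gene totals, so precision follows 28264655 to 36738202 counts per library. CPM values and the overlap of their ranges do not include the TMM scaling factors of the fit. Those factors were 1.01 to 1.03 in E1KO-titled and 0.965 to 0.990 in E1WT-titled libraries, so ratios of CPM differ from fitted folds. Libraries were grouped by title. No label states that each library is a separate animal, and the p-values then reflect only library-to-library spread, possibly technical. Replicates of a title differed beyond sampling noise (chi-square per degree of freedom at least 4.20).

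All genes were fitted with edgeR 4.0.16 in R 4.3.3, with TMM scaling, the default filter (count minimum 10, total 15), the quasi-likelihood test and Benjamini-Hochberg adjustment over 13333 genes at 0.05. Standard errors derive from the F statistic. The fit was tested on simulated data. Marker sums were tested by exact permutation, two-sided. Alternatives were DESeq2 1.42.0, its size factors, no low-count filter, the replicate block, each library left out and removal of a lowess trend on exon length. Library totals alone, and leaving out E1KO 1 and E1WT 4, were added after seeing the data. Members and lists were chosen with earlier results of these data known. Called members are described in full, other members by range, and at most 6 called genes per direction from each other list, by smallest p. Positions are from GENCODE M21 on GRCm38, the assembly of mm10, and 359 of 24421 symbols did not match. Some results are not reported here.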

Additional observations from a re-analysis of the deposited data

Results flagged for a closer look

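In 6 of 136 groups of 4 libraries, over Pcbp1, the members and the other named genes, 1 library lay far from the other 3 of its title; chance flags about 1 in 20 groups. Stat2 was at 82.1 CPM in E1KO 4, against 90.3 to 91.5 in the others. Gbp2 was at 84.4 CPM in E1KO 1, against 85.4 to 85.5. The E1WT 4 library held the other 4. There Ifih1 was at 50.3 CPM against 42.5 to 43.5, Samhd1 at 663 against 635 to 639, Rtp4 at 15.7 against 19.95 to 20.3, and Iigp1 at 42.8 against 44.3 to 44.6. In E1WT 4 the members' deviations followed exon length with a Spearman correlation of 0.61 over 42 genes, and Ifih1 and Samhd1, with 8165 and 9150 bp of exon, are long, while Rtp4, with 2131 bp, is short. The part of that trend in these values was not tested.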

How the results depend on the processing

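Over 15 alternatives, Pcbp1 kept its direction and call (log2 fold -2.56 to -2.43). The 11 called members kept their direction in every alternative, and DESeq2, its size factors and no low-count filter shared all 11 calls. Members called lower numbered 5 with the replicate block and 5 with library totals alone, against 9, and 6 to 10 with 1 library left out. The calls that ended were those of Dhx58, Irgm2, Isg20 and Oas2. Removal of the exon-length trend moved the calls of receptor and kinase genes that rose to 4 and of other interferon-stimulated genes that fell to 26, and the cause was not tested. The ligand call, Ifng, was 0 to 1 with 1 library left out, an alternative with fewer samples. The log2 fold of Oas1b (0.04) reversed to -0.0194 with the exon-length trend removed and -0.0153 without E1KO 1 and E1WT 4, and ran from -0.065 to 0.152 with 1 library left out. Of 27 members called in no alternative, 16 changed sign in at least 1, all with a log2 fold within 0.13 of 0. Same-numbered libraries did not deviate together (correlations -0.10 to 0.01), while differently numbered ones ran from -0.32 to 0.26. No pairing by number was seen, but such correlations cannot exclude one. The replicate block took the calls over all genes to 1151 higher and 1005 lower. Depth limits Oas1g, Mx2 and Ifi44, with at most 11, 97 and 145 reads per library.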

Other observations

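Genes around the called members were counted within 1 Mb on either side. Near Xaf1 on chromosome 11, 6 of 24 tested neighbours were called (25%), 5 of them higher, although Xaf1 itself fell. Near Oas1a on chromosome 5, 11 of 32 were called (34.4%), 8 of them lower, although Oas1a itself rose. Near Stat2, 15 of 62 were called (24.2%), near Irgm2 2 of 31 (6.45%) and near Ifit1 1 of 13 (7.69%). The share over all tested genes was 23.3%.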
